A study of Sus scrofa with 8 samples.

Results

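The genes described here are 7 of the 24358 genes in a count table of porcine induced pluripotent stem cells (piPSCs). They are the cytokine genes IL7 and IL15 and the receptor chain genes IL7R, IL2RG, IL4R, IL13RA1 and GHR. They were chosen by symbol, as cytokines known as targets of the transcription factor IRF-1 and as chains of type I cytokine receptors, and all 7 symbols had an identifier in the table.

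IL7 and IL15 are secreted proteins that keep lymphocytes alive and dividing, and IRF-1 is known to act on the genes of such cytokines in immune tissue. Their receptors pair the common gamma chain, which IL2RG encodes, with another chain. For IL7 this is the private chain IL7R, whereas the IL15 receptor uses IL2RB, which the IL2 receptor shares. The paired chains bring Janus kinases together that phosphorylate STAT proteins. IL4R and IL13RA1 encode the chains of receptors for IL4 and IL13, and GHR encodes the growth hormone receptor, a related type I receptor that works as a pair of like chains.

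RNA-seq was done on 4 libraries of piPSCs kept in medium with doxycycline, human and porcine LIF and 2 kinase inhibitors (DOX-hLIF-2i piPSCs). These cells carry the doxycycline-driven reprogramming factors (FUW-OSKM with M2rtTA) and an OCT4-tdTomato reporter. In the IRF-1 overexpressing group (replicates 1 and 3) a PB-CAG-IRF1-Flag transposon was added, and in the control group (replicates 6 and 8) the PB-CAG-Flag transposon without IRF1. Both groups were selected with puromycin, and feeder cells were left behind on a plate for 1 h before RNA was taken. The genotype label reads overexpression for all 4 libraries, so the grouping follows the study's legend through the sample titles. The labels name an LCDMV culture system, whereas the methods name the medium given above. The vector drives IRF1 from the ubiquitous CAG promoter in selected pools of cells. No source says whether the 2 libraries of a group came from separate cultures, so p-values measure only the spread between these samples, which may be technical.

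The libraries held 24923319 and 20858333 counts in the IRF-1 overexpressing group (replicates 1 and 3) and 15925429 and 17097669 counts in the control group (replicates 6 and 8). A single count was worth between 0.0403 and 0.0640 CPM, the count scaled to a common library size with TMM factors. Where neither library of a group exceeded 3 counts, the gene was treated as undetected in that group, at the floor. This floor stood at 0.121 and 0.144 CPM in the overexpressing libraries and at 0.192 and 0.172 CPM in the control libraries. IRF1 itself was counted 8206 and 5485 times in overexpressing replicates 1 and 3, against 55 and 56 times in control replicates 6 and 8. The groups lay far apart for the induced gene, with a log2 fold change of 6.46 and an adjusted p of 3.65e-05 in edgeR's quasi-likelihood test. Reads of the vector and of the cells' own IRF1 were not separated in these counts.

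Among the 7 genes, IL13RA1 was called higher in the IRF-1 overexpressing cells, and IL4R and GHR were called lower. To be called, a gene needed a log2 fold change of 1 or more in either direction and, over 13250 tested genes, an adjusted p under 0.05. Of all tested genes, 8.61% were called higher, 10.6% lower and 19.3% in either direction. These shares are the reference for the count of called genes in each list below, and no list was tested against them. Only 5 of the 7 genes had enough counts for the test, and IL15 and IL7R did not. IL7 passed the filter on low counts only through the overexpressing group and GHR only through the control group, so the share of tested genes that were called carries no weight of its own. In each fit that left out 1 library, IL13RA1 was the gene called higher. The number called lower dropped to 0 when overexpressing replicate 3 was left out, and to 1 when overexpressing replicate 1, control replicate 6 or control replicate 8 was. With glmTreat, which tests against a log2 fold change of 1 rather than 0, none of the 3 was called (adjusted p 0.0683 for IL13RA1, 0.159 for IL4R and 0.0512 for GHR). In bulk RNA, fewer cells that express a gene and less RNA per cell cannot be told apart.

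**Figure D1:**
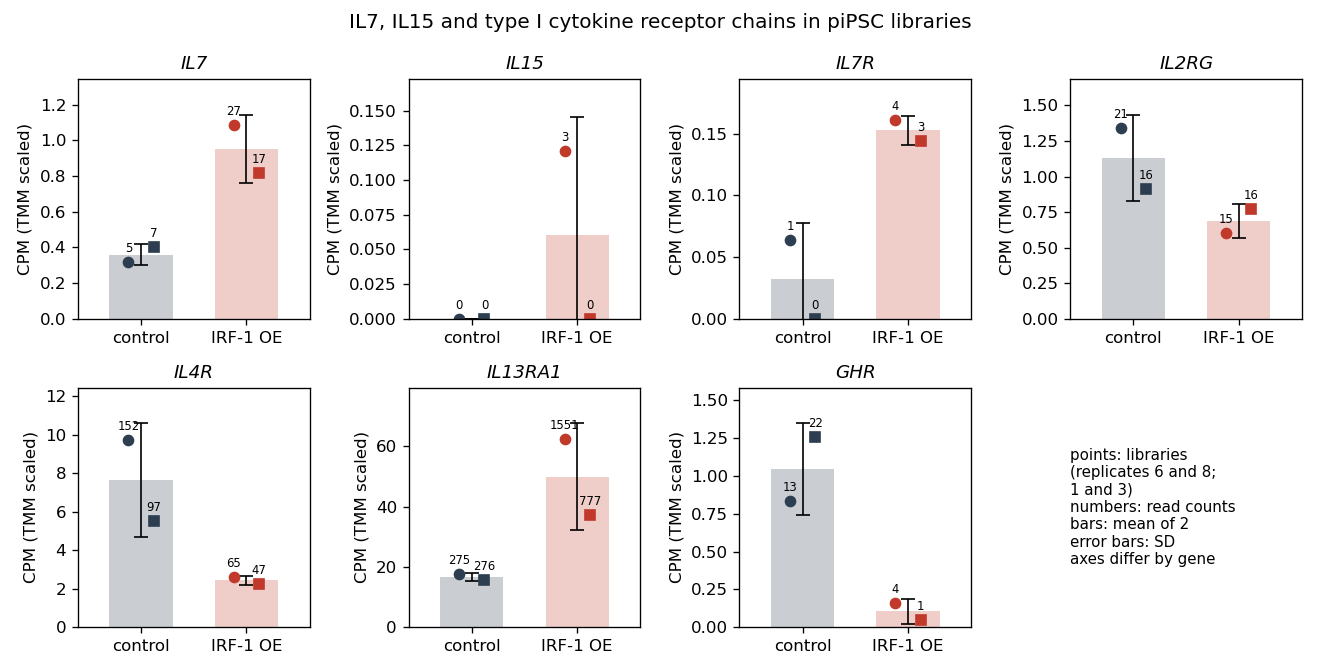
Expression of the 7 genes in each library, in CPM scaled by TMM on the vertical axis of each panel, for control and IRF-1 overexpressing (OE) cells, with the read count above each point, bars for the mean of 2 libraries and error bars for the SD. IL13RA1 and IL7 lay higher in both overexpressing libraries, IL4R, GHR and IL2RG lower, and IL15 and IL7R had at most 4 counts in any library.

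Of the ligands, IL7 (ENSSSCG00000006161) was counted at a low level in every library. Its gene lies on the plus strand of chromosome 4 of Sscrofa11.1, from 57684704 to 57744709, with 6 exon blocks that span 2089 bases. The overexpressing libraries had 27 and 17 counts (1.09 and 0.817 CPM), and the control libraries had 5 and 7 counts (0.320 and 0.400 CPM). Both overexpressing libraries lay above both controls, and all 4 values were above the floor. The means were 0.952 ± 0.191 CPM and 0.360 ± 0.0567 CPM (SD, n = 2 each). The fitted log2 fold change was 1.39 with a standard error of 0.55 and a 95% interval from 0.11 to 2.66. With an adjusted p of 0.0979 in edgeR, the difference did not pass the threshold. Summed over the libraries of a group, the ratio of IL7 counts per total count was 2.64, with a 95% interval from 1.37 to 5.50 that covers counting error only. The neighbouring gene ZC2HC1A, 16546 bases away, had 534 and 426 counts against 252 and 338 (log2 fold change 0.24, edgeR adjusted p 0.392).

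The study measured the IL7 transcript by qRT-PCR as well, and reported it as upregulated in IRF-1 overexpressing cells. It also reported a ChIP-seq peak of the tagged IRF-1 at IL7, in data that were not analysed here. The primers are shown because they define the part of the transcript that the qRT-PCR assay reads. They were not placed on the genome here.
IL7 forward: gaaggtaaagacggcggagt
IL7 reverse: aagttaggttcgttattcaggca

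IL15 (ENSSSCG00000009051), whose product is presented by the IL15 receptor alpha chain to neighbouring cells, had 3 counts in overexpressing replicate 1 and 0 counts in the other 3 libraries. It was at or under the floor in both groups, so no fold is given, and no difference was detectable at this depth. The gene model on the minus strand of chromosome 8, from 85668366 to 85678374, holds 6 exon blocks of only 503 bases in all. The nearest named genes were looked up after these values were known. INPP4B, 152146 bases away, had 696 and 381 counts in overexpressing cells, against 69 and 58 in controls (log2 fold change 2.59, edgeR adjusted p 0.00104). ZNF330, 340738 bases away on the other side, had 1624 and 1379 counts against 973 and 1072, at a log2 fold change of 0.09 (edgeR adjusted p 0.647). The 2 flanking genes thus stood at different sides of the threshold, while IL15 between them was hardly counted.

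The remaining ligands that had an identifier were as sparse. The 8 genes listed for ligands of gamma chain receptors and related receptors were IL2, IL4, IL7, IL9, IL13, IL15, IL21 and TSLP. IL13 and TSLP are ligands of related receptors without the gamma chain. Of the 8, 7 had a named identifier and IL7 alone was tested. IL2, IL9 and IL21 had 0 counts in all 4 libraries. IL4 had 1 count in each overexpressing library and 0 in the controls, and IL13 had 1 count in control replicate 8 and 0 elsewhere. IL7 was therefore the only one of these 7 ligands counted above the floor in both groups.

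Turning to the private chain for IL7, IL7R (ENSSSCG00000016832) had 4 and 3 counts in overexpressing cells, against 1 and 0 in controls. The groups did not overlap, but the ratio of counts per total count, 5.05, had a 95% counting interval from 0.649 to 228, which includes equal levels. Neither control library exceeded 3 counts, so IL7R was at the floor there and the ratio is not an exact fold. The gene was not tested. Its 9 exon blocks of 1996 bases lie on chromosome 16, and its neighbours SPEF2 (1, 11, 0 and 0 counts in overexpressing replicates 1 and 3 and control replicates 6 and 8) and CAPSL (0, 1, 1 and 5 counts) also had few counts.

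IL2RG (ENSSSCG00000012397), the chain shared by the receptors for IL2, IL4, IL7, IL9, IL15 and IL21, had 15 and 16 reads in the overexpressing libraries, against 21 and 16 in the controls. Scaled to library size these were 0.604 and 0.769 CPM against 1.34 and 0.915 CPM, so both overexpressing libraries lay below both controls. The log2 fold change was -0.71, with a standard error of 0.50, a 95% interval from -1.87 to 0.44 and an adjusted p of 0.325 in edgeR. The interval holds both a large fall and a small gain, so the direction was not settled by these counts. On the X chromosome, IL2RG shares 357 exon bases with FOXO4 and 256 with MED12, both on the opposite strand, and 525 with CXorf65 on the same strand. Without a stated strand setting, reads in such bases cannot be assigned to a gene. FOXO4 had 156 and 116 counts against 271 and 199 and was called lower (log2 fold change -1.27, edgeR adjusted p 0.0142), MED12 had 2207 and 1895 counts against 1432 and 1554, and CXorf65 had 0 counts in all 4 libraries. The part of these overlaps in the IL2RG counts was not tested.

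IL4R (ENSSSCG00000007817) encodes the alpha chain that binds IL4 and takes part in both types of IL4 receptor. It had 65 and 47 counts with IRF-1 overexpressed and 152 and 97 without, or 2.62 and 2.26 CPM against 9.73 and 5.55 CPM. The groups did not overlap, and the controls differed from each other more than the overexpressing libraries did, with means of 2.44 ± 0.252 and 7.64 ± 2.96 CPM (SD, n = 2 each). The log2 fold change was -1.64, with a standard error of 0.38, a 95% interval from -2.52 to -0.76 and an adjusted p of 0.0153 in edgeR. Counts per total count were 3.08 times as high in the controls, with a 95% counting interval from 2.46 to 3.89. The call was lost without overexpressing replicate 1 (adjusted p 0.0781), without overexpressing replicate 3 (0.0717) and without control replicate 6 (0.0562), and over 11 alternatives the adjusted p ran from 0.000285 to 0.159. The gene spans 19518680 to 19577332 on the minus strand of chromosome 3. Its neighbour IL21R, another gamma chain partner 29527 bases away, had 2, 0, 2 and 0 counts, and NSMCE1 on the other side had a log2 fold change of -0.37 (edgeR adjusted p 0.0902).

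IL13RA1 (ENSSSCG00000012633), which pairs with IL4R in the receptor that answers both IL4 and IL13, was the most abundant of the 7 in every library. It had 1551 and 777 counts in overexpressing cells, against 275 and 276 in controls, or 62.4 and 37.4 CPM against 17.6 and 15.8 CPM. Both overexpressing libraries lay above both controls, and they also differed from each other by more than the controls did. Means were 49.9 ± 17.7 and 16.7 ± 1.29 CPM (SD, n = 2 each). The log2 fold change was 1.58, with a standard error of 0.26, a 95% interval from 0.98 to 2.18 and an adjusted p of 0.00371 in edgeR. It was called higher in each of the 4 fits that left out a library, with log2 fold changes from 1.17 to 1.90, and over 11 alternatives its adjusted p ran from 1.11e-08 to 0.0683. IL13RA1 lies at 97300471 to 97356131 on the plus strand of the X chromosome, and DOCK11, 32959 bases away, had 401 and 230 counts against 119 and 114. The log2 fold change of DOCK11, 0.95 with an adjusted p of 0.038 in edgeR, was under the fold minimum.

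GHR (ENSSSCG00000016866) had 4 counts in overexpressing replicate 1 and 1 in replicate 3, against 13 and 22 in control replicates 6 and 8. In CPM these were 0.161 and 0.0481 against 0.832 and 1.26, and the groups did not overlap. The 4 counts of overexpressing replicate 1 were just above the floor of 3, and GHR passed the filter only through the control group. The log2 fold change was -3.20, with a standard error of 0.71, a 95% interval from -4.85 to -1.55 and an adjusted p of 0.0132 in edgeR. Counts per total count were 9.70 times as high in the controls, with a 95% counting interval from 3.79 to 31.7, a wide range set by the 5 counts of the overexpressing group. The call was lost without overexpressing replicate 3 (log2 fold change -2.66, adjusted p 0.0603) and without control replicate 8 (-2.86, 0.0595). Without overexpressing replicate 1 the log2 fold change was -4.26 with the call kept, and over 10 alternatives the adjusted p ran from 0.00518 to 0.0603. The gene is long, from 27126352 to 27421449 on the plus strand of chromosome 16, with 14 exon blocks. Its nearer named neighbour CCDC152, 53247 bases away, had 5 and 0 counts against 10 and 9 and was not tested, and FBXO4, 403485 bases away on the other side, had 420 and 341 counts against 304 and 273 (log2 fold change -0.07, edgeR adjusted p 0.823). IGF1, the best known gene downstream of growth hormone, had 1, 1, 2 and 3 counts and was not tested.

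Levels were compared between the genes per length, as FPKM, the CPM divided by the exon length of the count table in kilobases. In the control cells the order was IL13RA1 (4.03 ± 0.311 FPKM), IL4R (1.07 ± 0.415), GHR (0.288 ± 0.0831), IL2RG (0.220 ± 0.0592), IL7 (0.172 ± 0.0271), IL7R (0.0160 ± 0.0227) and IL15 (0). GHR, IL2RG and IL7 followed each other within about 1 SD, whereas IL13RA1 and IL4R stood clear of the genes next to them. In the overexpressing cells the order was IL13RA1 (12.1 ± 4.28 FPKM), IL7 (0.456 ± 0.0912), IL4R (0.342 ± 0.0354), IL2RG (0.134 ± 0.0228), IL15 (0.120 ± 0.170), IL7R (0.0765 ± 0.00594) and GHR (0.0288 ± 0.0220). There IL7 and IL4R overlapped within 1 SD of each, IL15, whose level rested on 1 library, overlapped with IL2RG, IL7R and GHR, and GHR stood below IL7R. IL13RA1 lay above 81.3% of all genes of the table in FPKM in the overexpressing cells and above 65.9% in the controls, and IL4R above 47.7% and 54.3%.

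The chains that form IL4 and IL13 receptors thus moved in opposite directions, and their ratio within each library was taken per length. IL13RA1 was 41.1 and 28.5 times the FPKM of IL4R in the overexpressing libraries and 3.12 and 4.90 times in the controls. Since the genes had been called in opposite directions, these ratios describe the size of the shift and are no further evidence of it. For IL4R over IL2RG, the chains of the other IL4 receptor, the ratios were 3.12 and 2.11 against 5.21 and 4.36, and an exact permutation test on 2 against 2 libraries cannot give a two-sided p below 0.333.

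Of 11 receptor genes listed for the gamma chain family and related chains, 9 had an identifier and 4 were tested. IL13RA1 and IL13RA2 were called higher and IL4R lower, but neither gene called higher encodes a partner of the gamma chain. The median log2 fold change of the 4 was 0.43, beside -0.00 over all tested genes. IL13RA2 passed the filter on low counts only through the overexpressing group, so this count and median depend in part on the change itself. IL13RA2, which binds IL13 and is known as a decoy, had 21 and 18 counts in overexpressing cells, against 0 and 4 in controls. The groups did not overlap, and the log2 fold change was 2.77 with an adjusted p of 0.0495 in edgeR. It was not called without overexpressing replicate 1 (adjusted p 0.146), without overexpressing replicate 3 (0.0986) or without control replicate 6 (0.143, at a log2 fold change of 1.88), and without control replicate 8, the remaining control has 0 counts, so that fit gives no usable fold. The call was also lost in DESeq2 (adjusted p 0.136) and with glmTreat (0.192), and apart from the fit without control replicate 8 the lowest adjusted p of any alternative was 0.0238. IL9R (9, 8, 11 and 9 counts), IL2RA (0, 3, 2 and 0), IL2RB (0, 0, 1 and 0) and IL21R were not tested. IL2RB, the chain that the receptors for IL2 and IL15 share beside IL2RG, was thus under the floor in both groups.

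**Figure D2:**
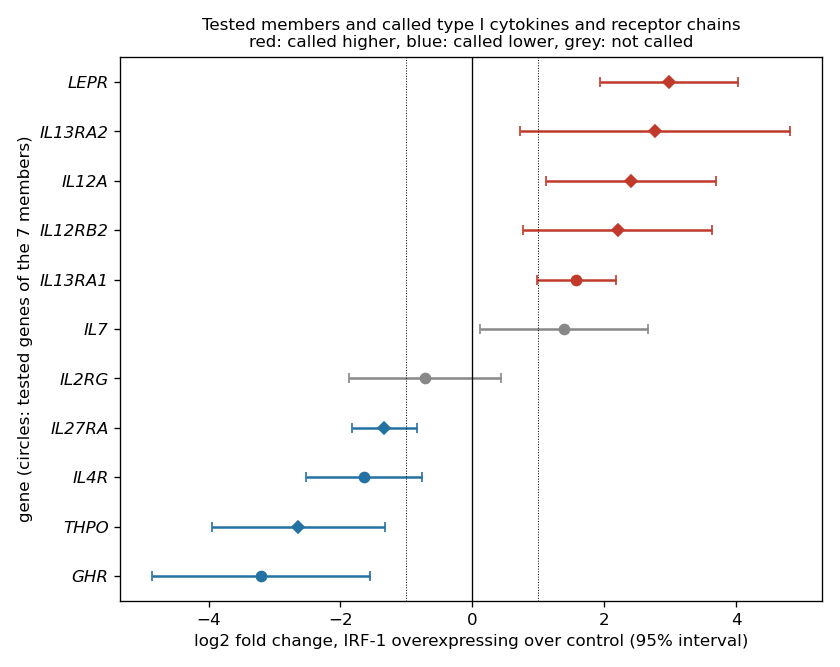
Fitted log2 fold changes (horizontal axis, IRF-1 overexpressing over control) with 95% intervals for the tested genes of the 7 and the other listed type I cytokines and receptor chains that were called, 1 gene per line of the vertical axis, with circles for tested genes of the 7 and diamonds for other genes, and with dotted lines at a log2 fold change of 1 in either direction. IL13RA1 and IL13RA2 lie on the right, IL4R and GHR on the left, and the interval of IL2RG crosses 0.

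Among 16 other type I receptor genes listed, GHR included, 14 had an identifier and 7 were tested, of which 2 were called higher and 2 lower (median log2 fold change -0.54). IL12RB2 passed the filter only through the overexpressing group and GHR only through the control group, so the count and the median support nothing about the list. LEPR, the leptin receptor, had 432 and 173 counts in overexpressing cells, against 20 and 34 in controls. Its log2 fold change was 2.99 (edgeR adjusted p 0.00271), and it stayed called without each library, at 2.36 without overexpressing replicate 1. IL12RB2, a chain of the IL12 receptor, had 40 and 19 counts against 3 and 6, at a log2 fold change of 2.20 (edgeR adjusted p 0.0316). That call was lost without overexpressing replicate 1 (adjusted p 0.198), control replicate 6 (0.118) or control replicate 8 (0.0566), in DESeq2 (0.103) and with glmTreat (0.16), within a range from 0.0156 to 0.198 over 10 alternatives. IL27RA, a chain of the IL27 receptor, had 198 and 173 counts against 344 and 333, at a log2 fold change of -1.33 (edgeR adjusted p 0.00356), and was not called with glmTreat (0.175, range over 11 alternatives 1.32e-05 to 0.175). It shares 3049 exon bases with PALM3 on the opposite strand, which had 49, 22, 55 and 42 counts, so its reads cannot be told apart from those of PALM3 there. CSF3R (41 and 52 counts against 57 and 42) was tested and not called, with a log2 fold change of -0.54 and a 95% interval from -1.53 to 0.44.

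Of 13 other ligand genes listed, 11 had an identifier and 2 were tested, IL12A only through the overexpressing and THPO only through the control libraries. IL12A, a subunit of IL12 and IL35, had 37 and 30 counts in overexpressing cells, against 3 and 6 in controls (log2 fold change 2.41, edgeR adjusted p 0.015). THPO, a cytokine that drives platelet formation, had 13 and 7 counts against 58 and 31 (log2 fold change -2.64, edgeR adjusted p 0.0112). The groups did not overlap for either gene. Without overexpressing replicate 1 the adjusted p of IL12A was 0.0721 without control replicate 6 it was 0.0628, and with glmTreat it was 0.0798 (range over 11 alternatives 0.00507 to 0.0798). For THPO it was 0.0523 with overexpressing replicate 1 left out and 0.0526 with overexpressing replicate 3 left out, and 0.0536 with glmTreat (range 0.000169 to 0.0536), and its log2 fold change was -2.01 without control replicate 6. CSF3, next in level, had 7, 3, 7 and 2 counts and was not tested, and EPO, LEP, CSF2, IL23A and IL27 had 0 counts in all 4 libraries.

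Of the kinases, STAT proteins and feedback inhibitors through which these receptors signal, 15 of 17 listed genes were tested, with JAK1, STAT3 and SOCS1 called higher, JAK3 and STAT6 lower, and a median log2 fold change of 0.09. JAK3, the kinase that binds the IL2RG chain, had 0 and 4 counts in overexpressing cells, against 39 and 20 in controls (log2 fold change -4.25, edgeR adjusted p 0.0132), with -3.18 and an adjusted p of 0.0619 without overexpressing replicate 1 (range over 11 alternatives 4.91e-05 to 0.0619) and -3.60 without control replicate 6. JAK3 passed the filter only through the control group. The list's count of genes called lower and its median thus depend in part on the change itself. Without overexpressing replicate 3 the remaining overexpressing library has 0 counts for JAK3, so that fit gives no usable fold. JAK1, its partner kinase on the private chains, had 1029 and 648 counts against 156 and 155 (log2 fold change 1.95, edgeR adjusted p 0.000917). STAT6, which acts below IL4R, had 145 and 111 counts against 411 and 310 (log2 fold change -1.98, edgeR adjusted p 0.00173), and it shares 2262 exon bases with NAB2 on the opposite strand (253, 197, 304 and 318 counts). STAT3 had a log2 fold change of 1.00, close to the fold minimum, and fell short of it without overexpressing replicate 1 (0.85) and without control replicate 8 (0.95). It was also just under it with library size alone as the scaling (log2 fold change 0.998), and was not called with glmTreat (adjusted p 1.00, range over 11 alternatives 3.40e-06 to 1.00). STAT3 shares 957 exon bases with STAT5A on the opposite strand. SOCS1 stood at 1.25 (edgeR adjusted p 0.00247) and was not called with glmTreat (adjusted p 0.228, range over 11 alternatives 2.87e-06 to 0.228), and STAT5A and STAT5B, which act below IL7 and IL15 receptors, at -0.33 and 0.02 and were not called.

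Of 19 listed genes for receptor adaptors, PI3K and cell survival, 15 were tested, with 1 called higher, 5 lower and a median log2 fold change of -0.05. Over all tested genes 8.61% were called higher and 10.6% lower, and the list was not tested against these shares. IRS2, an adaptor that docks on IL4R, had 437 and 299 counts in overexpressing cells, against 29 and 22 in controls (log2 fold change 3.36, edgeR adjusted p 0.000556). Those called lower included SHC1 (log2 fold change -1.80), PIK3CB (-1.45), BCL2L1 (-1.63) and IGFALS (-1.38). BCL2L1, which encodes the survival protein BCL-XL, had 728 and 750 counts against 1961 and 1345, and it shares 1994 exon bases with ID1 (0, 0, 2 and 0 counts) and 192 with TPX2 (5673, 5044, 3250 and 4387 counts), both on the opposite strand, and 487 with an unnamed gene on the same strand (3, 1, 0 and 0 counts). The part of these overlaps in its counts was not tested. IGFALS, which binds IGF1 in blood, was not called without overexpressing replicate 1 (adjusted p 0.121), overexpressing replicate 3 (0.15) or control replicate 6 (0.0987), or with glmTreat (0.382), within a range from 0.00882 to 0.382 over 11 alternatives. PIK3CB was not called with glmTreat either (0.0746, range 5.24e-07 to 0.0746). MCL1 had the highest CPM of the list, at 291 ± 28.5 and 223 ± 33.0 (SD, n = 2 each), and was not called.

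Lymphocyte and leukocyte markers were counted because these cytokine receptors are best known from such cells. Of 26 listed genes, 23 had an identifier, and those with 0 counts in all 4 libraries included CD3E, CD8B, CD5, MS4A1, NCR1 and LCK. PTPRC, the pan-leukocyte marker, and CD3D each had 1 count in control replicate 8 and 0 elsewhere. The summed level was 15.5 and 18.6 CPM in the overexpressing libraries and 19.3 and 15.7 CPM in the controls. By the mean over all 4 libraries, CD68 was the most abundant gene, followed by CD247 and CD79A. In overexpressing replicate 3, CD247 (7.26 CPM) lay above CD68 (6.49 CPM). In the controls the mean of CSF1R (1.58 CPM) lay above that of CD79A (1.44 CPM). CD68 shares 121 exon bases with EIF4A1 (40748, 37306, 28006 and 29363 counts), and CD79A shares 3229 with ARHGEF1 (24, 9, 7 and 10 counts), both on the same strand. Also on the same strand, CD247 shares 679 with CREG1 (15, 24, 32 and 12 counts) and LCK shares 576 with HDAC1 (5919, 6022, 4544 and 5459 counts). Of the 6 tested, edgeR called 0, DESeq2 called 0, and 0 had an unadjusted p under 0.05 (median log2 fold change -0.07). Other lymphocyte genes of the list were counted above the floor. CD247 had 97 and 151 counts in overexpressing cells, against 84 and 101 in controls, CD79A 47 and 59 against 28 and 19, and PAX5 41 and 8 against 6 and 11. The T cell genes CD3D and CD3E and the pan-leukocyte gene PTPRC were thus at or near 0 in both groups, whereas the list as a whole was not.

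Of 15 fibroblast markers, 13 had an identifier, and 8 were tested, with COL1A2 called higher and COL1A1, DCN, PDGFRB and S100A4 lower (median log2 fold change -1.79). The summed level was 270 and 221 CPM in the overexpressing libraries and 353 and 287 CPM in the controls, with FBN1 the most abundant by the mean of each group. In overexpressing replicate 1, COL1A2 (139 CPM) lay above FBN1 (123 CPM). PDGFRB had 28 and 62 counts against 1966 and 978, S100A4 39 and 89 against 291 and 211, and DCN 3 and 1 against 19 and 19, whereas COL5A1, COL6A3 and LUM had at most 3 counts in any library. Those called lower stayed so without each library. The log2 fold change of PDGFRB, however, moved from -5.49 to -6.32 without overexpressing replicate 3 and to -4.79 without control replicate 6. That of S100A4 moved from -2.40 to -3.28 without overexpressing replicate 3. DCN did not exceed 3 counts in either overexpressing library, so it was at the floor there. Its log2 fold change, -3.63 and -4.39 without overexpressing replicate 1, is therefore not exact. COL1A2 was not called without overexpressing replicate 1 (log2 fold change 0.64) or without control replicate 8 (0.78), nor with glmTreat (adjusted p 0.862, range over 11 alternatives 8.24e-06 to 0.862). COL1A1, DCN, PDGFRB and S100A4 were thus lower in the same group as IL4R and GHR, COL1A2 was higher there, and FBN1 (-0.23), TWIST2 (0.43) and PDGFRA (-1.60) were not called. The log2 fold change of TWIST2 was 1.51 without control replicate 6. It changed sign without overexpressing replicate 3 (-0.12) and without control replicate 8 (-0.21). PDGFRA, with 12 and 12 counts against 32 and 21, was close to the threshold (edgeR adjusted p 0.0507) and was called lower with library size alone, with upper quartile scaling, with both other filters and without control replicate 8 (range over 11 alternatives 0.0416 to 0.342). The part of the fibroblast markers in the results for the cytokine receptors was not tested. DCN passed the filter on low counts only through the control group. The count of fibroblast markers called lower and their median thus depend in part on the change itself.

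Of 12 pluripotent cell markers, 6 had an identifier and 5 were tested. LIN28A (log2 fold change -1.34), CDH1 (-2.25) and ESRRB (-4.19) were called lower, and the median was -1.34. ESRRB had 31 and 37 counts in overexpressing cells, against 502 and 402 in controls, and CDH1 had 631 and 1539 against 3753 and 4062. LIN28A was not called with glmTreat (adjusted p 0.0951, range over 11 alternatives 1.57e-10 to 0.0951). CDH1 stood at -1.67 without overexpressing replicate 1 and at -3.22 without overexpressing replicate 3. The most abundant gene, DNMT3B, and EPCAM were not called, and NANOG, a defining marker, had 8, 11, 5 and 9 counts and was not tested. Summed over the list, the level was 1234 and 1277 CPM in the overexpressing libraries and 1480 and 1642 CPM in the controls, and the part of this difference in the results for the cytokine receptors was not tested. POU5F1, SOX2, SALL4, DPPA3, ZFP42 and TDGF1 had no named identifier in the table used here.

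The genes with the most similar pattern over the 4 libraries were found by the root mean square difference of centred log2(CPM + 0.5). For IL4R these were KIF17 (85, 61, 201 and 133 counts in overexpressing replicates 1 and 3 and control replicates 6 and 8, difference 0.0430) and ANGPTL2 (difference 0.0436). For IL13RA1 they were ADGRG5 (70, 30, 7 and 6 counts, difference 0.0150) and PRRX1 (1399, 741, 245 and 250 counts, difference 0.0363). For GHR they were SP8 (2, 0, 10 and 18 counts, difference 0.0339) and SYNC (12, 7, 25 and 41 counts, difference 0.0461). With only 4 libraries such likeness is common, and 131, 134 and 79 named genes lay within a difference of 0.2 of IL4R, IL13RA1 and GHR.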

How the data were processed

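The table that the authors deposited holds raw counts, as whole numbers, for each gene in each library, with gene positions and exon lengths as annotation values. According to the methods, reads were mapped to Sscrofa11.1 with HISAT2. The submitters' processing notes name featureCounts 1.6.4, whereas the methods name both htseq-count and featureCounts, and the deposited table has the column layout that featureCounts writes. The annotation release, strand setting and treatment of multi-mapped reads are not given in the sources used here. Of 24358 identifiers, 14692 had a symbol. The ChIP-seq libraries were not analysed here.

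The comparison was fitted with edgeR 4.0.16 (R 4.3.3), using TMM scaling, filterByExpr by group, the quasi-likelihood test and Benjamini-Hochberg adjustment over 13250 genes. Called genes had a log2 fold change of 1 or more in either direction and an adjusted p under 0.05. The standard error was the size of the log2 fold change divided by the square root of F, and 95% intervals used the t quantile. Ratios of summed counts have exact binomial intervals conditional on the sum. These intervals and the floor of 3 counts cover counting error only. CPM and FPKM were scaled by TMM, and each SD is over 2 libraries. Within each group the libraries differed beyond counting error, so none was a copy.

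The members and gene lists were chosen with earlier results of these data known. Named genes are the members, IRF1, each called gene of the lists, the most abundant genes (up to 3) of lists with fewer than 3 called genes, and for each called member the 2 tested genes most like it. Other genes named, such as neighbours on the chromosome, genes that share exons and further list genes, were chosen after their values were seen. Alternatives were other scalings, other filters, DESeq2 1.42.0, glmTreat, no fold minimum, a floor of 5 counts and each library left out in turn. Calls of the listed genes under these settings were added after seeing the data. Results for some single genes of the lists are left out of the text. The fit was tested on simulated data. Python 3.11.15 with pandas 2.3.3 and matplotlib 3.10.9 served for tables and plots.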

Additional observations from a re-analysis of the deposited data

How the results depend on the processing

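No tested member changed direction under any alternative. IL7 (log2 fold change 1.17 to 1.57, adjusted p 0.0975 to 0.605) and IL2RG (-0.96 to -0.42, adjusted p 0.286 to 1.00) were not called in any of 10 alternatives. With at least 1 CPM in 2 libraries, 1 member was called lower, since IL7, IL2RG and GHR were filtered out and gave no value. With glmTreat, which tests against a log2 fold change of 1, 611 genes were called higher and 603 lower, and of the members 0 and 0, although 3 had an unadjusted p under 0.05 (IL4R -1.64, adjusted p 0.159; IL13RA1 1.58, 0.0683; GHR -3.20, 0.0512). With no fold minimum 1842 genes were higher and 2054 lower. Leaving out each library gave 733 to 1124 genes higher, 787 to 1500 lower and 0 to 1 members lower, with log2 fold changes of -1.99 to -1.18 for IL4R and -4.26 to -2.66 for GHR. There the lone library was assumed to vary like the other group, and the cause was not tested. DESeq2 called 1073 genes higher and 1324 lower, and the same 3 members. Other scalings moved the median of all genes by less than 0.01. With a floor of 5 counts, 3 members were at the floor in a group, against 2. The added member was GHR, with 4 and 1 counts in the overexpressing libraries. No paired analysis was possible because the groups share no replicate numbers. IL15 and IL7R had too few counts for a test at this depth.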
